A study of Homo sapiens with 25 samples.

Results

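The comparison described here sets Jurkat cells kept for 6 days in medium with 12.5% histidine against Jurkat cells kept for 6 days at 100% histidine. It takes the 2 libraries labelled 12.5% and the 3 labelled 100% on day 6, which are 5 of the 25 libraries of the series, chosen by their titles and not by any measured value. Jurkat is an established human T-cell leukaemia line, and all 5 libraries come from this line with no other treatment named in the labels. The series asked how these cells respond to a limited histidine supply and also held 3 libraries at 50% and 3 at 25% on day 6. On day 3 it held 2 libraries at 100% and 3 at 12.5%, with further libraries at 50%, at 25% and without histidine. All 25 libraries entered the fit that sets the shared spread. Nothing in the labels says that the libraries of a group came from separate cultures, and p-values here speak of library-to-library spread alone, technical or not. The labels do not give the seeding density, the passage or feeding schedule or the histidine concentration that 100% stands for.

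Histidine is an essential amino acid that human cells take up from the medium through plasma membrane transporters and that histidyl-tRNA synthetase attaches to its transfer RNA. A shortage of a charged transfer RNA can be sensed by the kinase GCN2, which slows translation initiation and favours translation of the transcription factor ATF4. ATF4 then drives genes for amino acid uptake, amino acid synthesis and transfer RNA charging. Amino acid supply is also read by the mTORC1 kinase, which promotes ribosome production, sterol and nucleotide synthesis and restrains autophagy.

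Expression was read as normalized counts per gene, the deposited values, in which differences in library size have already been removed. The sequencing depth of each library is not known from such values. The 5 libraries held 18183 to 19484 genes at 10 or more. Transcripts of the mitochondrial genome took 2.73% and 5.361% of the values at 12.5% and 3.054%, 4.604% and 4.223% at 100%, so the groups overlapped. T-cell transcripts were present in all 5 libraries, with CD3E, a subunit of the T-cell receptor complex, at 22051 and 22417 at 12.5% and 16721, 16025 and 15852 at 100%. Replicate 3 at 100% stood apart from the other 100% libraries on the second principal component (-59.1 against -27.53 and -13.01). Replicate 3 was also the lowest there at 50% (-61.92 against -5.591 and -19.47) and at 25% (-36.04 against -14.91 and -28.09), and no replicate 3 of 12.5% was analysed here. The removal of replicate 3 at 100% is among the leave-one-out results given below.

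The libraries carry running numbers in their labels, and both 12.5% libraries (24 and 25) follow replicate 3 of 25% (number 23), while the 100% libraries are 15, 16 and 17. The library numbered 22, replicate 2 of 25%, held heart muscle transcripts, with MYH7, a cardiac myosin heavy chain, at 18207. Low MYH7 levels divided the other day 6 libraries: numbers 15 to 21 held 39.9 to 67.5 and numbers 23 to 25 held 2.60 to 5.49. The cardiac actin ACTC1 was divided in the same place, at 13.0 to 29.6 against 0.00 to 3.19, whereas the myosin MYH6 was not, at 33.1 to 50.3 against 31.9 to 37.7. On day 6 no library at 12.5% lies outside numbers 23 to 25 and none at 100% lies within them. Because replicate 3 of 25% shares this block with 12.5%, a fit with this block of libraries as a term (the block term) could be made, and its values are given where they bear on a result.

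After 6 days at 12.5% histidine, 5036 of 22994 tested genes had changed against 100% (21.9% of those tested, limma, Benjamini-Hochberg adjusted p under 0.05). Of these, 2482 rose (10.8%) and 2554 fell (11.1%). Most changes were modest: the median size was 0.46 on the log2 scale among rises and 0.68 among falls, and 300 rises and 755 falls reached 1 log2 unit, which is a doubling or halving. The median over all tested genes was 0.00. Genes whose 12.5% and 100% libraries did not overlap numbered 11376 (49.5% of those tested). Among called genes 2475 of the 2482 rises and 2549 of the 2554 falls were of this kind, so a lack of overlap adds little to a call. Without replicate 1 at 12.5% the count of rises was 1599, and without replicate 2 at 12.5% it was 1452, with 3175 changes in all. In these 2 fits a single library is assumed to vary like the other groups.

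With libraries 23 to 25 as a term, a fit added after the values had been seen, 2107 genes were called, 1243 higher and 864 lower. The term rests on 1 library at 25% against 2, and the median standard error of the 5036 called genes was 0.1847 with it and 0.1111 without. Of those genes, 4994 had the same sign in both fits and 1957 were called in both. List counts with the term, given below, stand beside 1243 rises and 864 falls among all 22994 tested genes. Since calls were fewer over all genes too, a lower list count does not tell the block from the wider standard error.

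**Figure D1:**
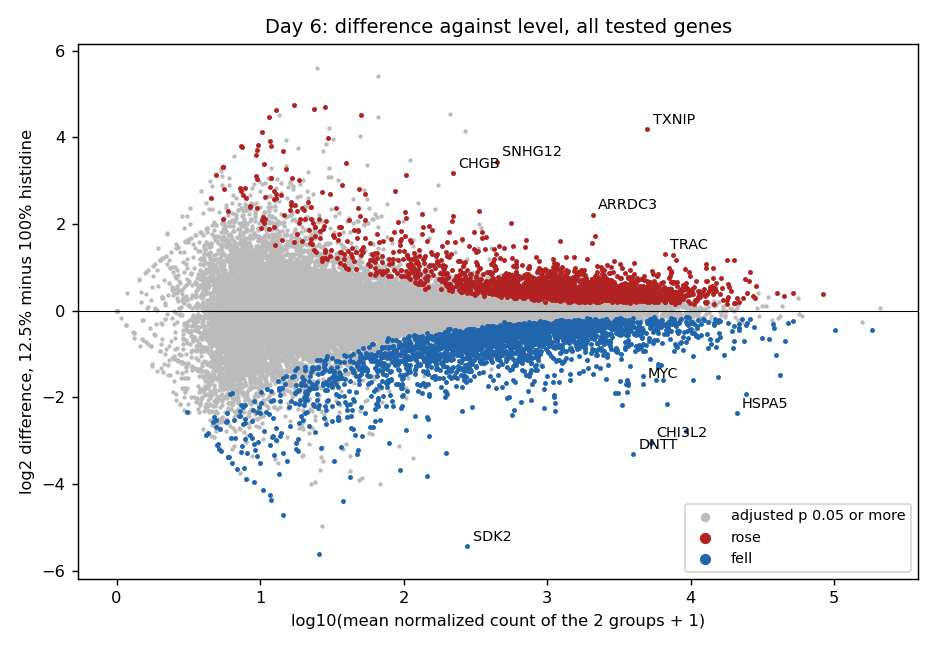
Difference between 12.5% and 100% histidine on day 6 (vertical axis, log2) against the mean level of each gene (horizontal axis, log10 of normalized counts + 1), 1 point for each of 22994 tested genes. Red points rose, blue points fell, grey points did not pass; TXNIP is the red point at 4.19, and SDK2 (-5.43) and DNTT (-3.31) are among the deepest falls.

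TXNIP rose furthest among called genes with a gene symbol, no overlap between the groups and a group mean of at least 100 normalized counts. It encodes thioredoxin-interacting protein, an arrestin-family protein that binds thioredoxin and limits glucose uptake, and lies at chromosome 1, 145992435 to 145996600, minus strand (GRCh38). Its normalized counts were 9428 and 9533 at 12.5% and 543, 510.2 and 503 at 100%, a difference of 4.19 ± 0.09 (log2, SE; adjusted p = 2.36e-21). The 12.5% libraries lay about 18.3 times above the 100% libraries. At 50% histidine TXNIP read 432, 534 and 404, beside the 100% level, and at 25% it read 12889, 12642 and 12844, above the 12.5% level. Its relatives ARRDC3 (3359.6 and 3464 at 12.5% and 724, 824 and 662 at 100%, 2.22) and ARRDC4 (320.3 and 374 at 12.5% and 83.6, 106 and 62.1 at 100%, 2.06) also rose. At 25% ARRDC3 read 1117, 1038 and 1160.2, nearer to 100% than to 12.5%.

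The promoter of TXNIP is shown because it holds the paired motif bound by the glucose-sensing factors MondoA and ChREBP, which was searched on both strands as CACGNG, 5 bases of any kind and CACGNG again. The stretch comes from RefSeq promoters of GRCh38.p14, which run from 250 bases before to 50 bases after each gene's start. Its capitals mark the match, 88 to 72 bases before the start.
TXNIP (chr1:145996626-145996692, minus strand): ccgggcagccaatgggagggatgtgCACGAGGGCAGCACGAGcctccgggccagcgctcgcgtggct
A match is a description of the letters, not a shown binding site. This motif occurred in 20 of 35116 promoters of that length (0.057%). Among 15 promoters found for the 20 tested genes of glucose entry and the hypoxia response, the other match was that of P4HA1, a collagen prolyl hydroxylase subunit, which fell (541 and 621 at 12.5% and 1869, 2066 and 1583 at 100%, -1.66).

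The remaining genes of glucose entry and the hypoxia response mostly fell: 12 of 20 tested members fell and 3 rose, TXNIP and ARRDC4 among them, with a median of -0.65. PDK1, a kinase that restrains pyruvate dehydrogenase, stood at 474 and 455 at 12.5% and 1527, 1522 and 1374 at 100% (-1.66). The glucose transporter SLC2A1 (-0.81) and the mitophagy receptor BNIP3 (-1.09) fell as well. VEGFA, a hypoxia-inducible growth factor, was the third riser (0.26). With the term for libraries 23 to 25, 6 members fell and 3 rose.

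Glycolysis followed the same direction, with 14 of 17 tested enzymes lower, none higher and a median of -0.62. The brain-type aldolase ALDOC fell furthest (348 and 309 at 12.5% and 1496, 1686 and 1493 at 100%, -2.24 ± 0.12, adjusted p = 3.68e-13). Its libraries were about 4.73 times lower at 12.5%, without overlap. Glucose-6-phosphate isomerase GPI (-0.92), lactate dehydrogenase LDHA (-0.92), triosephosphate isomerase TPI1 (-0.88) and GAPDH (-0.70) fell by less, and the pyruvate kinase gene PKM (0.06) did not pass. Of 16 tested enzymes of the tricarboxylic acid cycle 7 fell and 1 rose (median -0.33). Citrate synthase CS stood at 2665 and 2729 at 12.5% and 3888, 4107 and 3860.1 at 100% (-0.55). The single rise there, OGDH (0.26), was lost when any 1 of the 5 compared libraries was left out, 3 members rose without the library with heart transcripts, and with the block term 1 member of this list fell and 2 rose. Of the 32 nuclear-encoded respiratory chain genes 23 did not pass, 4 rose and 5 fell (median -0.00). Over all tested genes 10.8% rose and 11.1% fell, so these counts lie near the general share. Rises numbered 1 or 2 without any 1 of the 5 compared libraries, and falls 1 without replicate 1 at 12.5% and 3 without its replicate 2 or replicate 2 at 100%. With the block term 2 rose and 1 fell. None of the 13 mRNAs of the mitochondrial genome passed (median 0.08).

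Amino acid supply genes went both ways. Of 17 tested genes that handle histidine 4 rose and 2 fell (median -0.07), beside 10.8% and 11.1% over all tested genes. HARS1, the cytosolic histidyl-tRNA synthetase, read 1673 and 1788 at 12.5% and 1394, 1542 and 1458 at 100% (0.24 ± 0.07, adjusted p = 0.0204). This difference is small, and its adjusted p ranged from 0.0115 to 0.223 over 17 alternatives, missing the threshold in 5 of them, among them those without replicate 2 at 12.5% or replicate 1 at 100%. The other rises were the dipeptidase CNDP2 (0.26), which cleaves histidine-containing dipeptides, the carnosine methyltransferase CARNMT1 (0.38) and the actin histidine methyltransferase SETD3 (0.24). SLC38A5, a transporter that carries histidine and glutamine, fell to 461 and 447 from 828, 988 and 866 (-0.97). HAL, histidine ammonia-lyase of histidine breakdown, was low throughout (0.00 and 9.53 at 12.5% and 30.2, 29.7 and 29.7 at 100%, -3.25) and is listed at 0 in 1 library. Without replicate 2 at 12.5%, or without replicate 1 at 100%, 2 genes of this list rose, and without replicate 1 at 12.5% 1 fell. CARNMT1 did not pass without replicate 1 of either group. With the block term 4 rose and 1 fell, and HAL did not pass (adjusted p = 0.0575).

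Of 19 tested plasma membrane amino acid transporters 3 rose and 6 fell (median -0.22). SLC7A5, the large neutral amino acid carrier that also imports histidine, rose from 42216, 45466 and 44221 to 58159 and 58872 (0.41 ± 0.05). Its partner chain SLC3A2 rose by 0.25 and the cystine importer SLC7A11 by 0.91 (1778 and 1732 at 12.5% and 862, 969 and 981 at 100%). The cationic carrier SLC7A1 (-0.40), the exporter chain SLC7A7 (-1.37) and the glycine carrier SLC6A9 (-0.75) fell.

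Targets of ATF4 and its partner CHOP went both ways on day 6: 9 of 28 tested rose, 6 fell and 13 did not pass, with a median of -0.09. TRIB3, a pseudokinase that dampens the ATF4 response, rose modestly (17457 and 17064 at 12.5% and 14919, 10760.2 and 12603 at 100%, 0.45), and in a fit of the 5 compared libraries alone its adjusted p was 0.101. CEBPG, a dimer partner of ATF4, read 4727 and 4635 at 12.5% and 3207, 2985 and 2949 at 100% (0.62 ± 0.06, adjusted p = 2.09e-08), without overlap. SESN2, a leucine-binding inhibitor of mTORC1, rose as well (0.37). The falls included DDIT3, which encodes CHOP itself (481 and 474 at 12.5% and 1299, 969 and 1216 at 100%, -1.27 ± 0.12, adjusted p = 1.56e-08), and DDIT4, an mTORC1 inhibitor (928 and 1041 at 12.5% and 2611, 2553 and 2544 at 100%, -1.38). ASNS, asparagine synthetase and a standard ATF4 target, also fell (1467 and 1435 at 12.5% and 1783, 2134 and 1865 at 100%, -0.40). In the fit with the block term ASNS had a difference of -0.22 (adjusted p = 0.467). CHAC1, which degrades glutathione, read 979 and 956 at 12.5% and 942, 1096 and 1073 at 100% and did not pass (-0.10, adjusted p = 0.527), nor did ATF4 mRNA (-0.12) or ATF3 (-0.36, adjusted p = 0.0736), although ATF3 passed, lower, in 2 of 17 alternatives.

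Serine, proline and one-carbon synthesis genes fell in 10 of 17 cases and rose in 1 (median -0.35). CBS, the first enzyme of transsulfuration, went from 3432, 3587 and 3679 to 1777 and 1606 (-1.08). AHCY, which hydrolyses S-adenosylhomocysteine (-0.99), and the proline synthesis enzyme PYCR1 (-0.93) fell by similar amounts. PHGDH, the entry to serine synthesis, fell by little (-0.26) and PSAT1 did not pass (0.04). The single rise was lost without replicate 2 at 12.5% and with the block term.

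**Figure D2:**
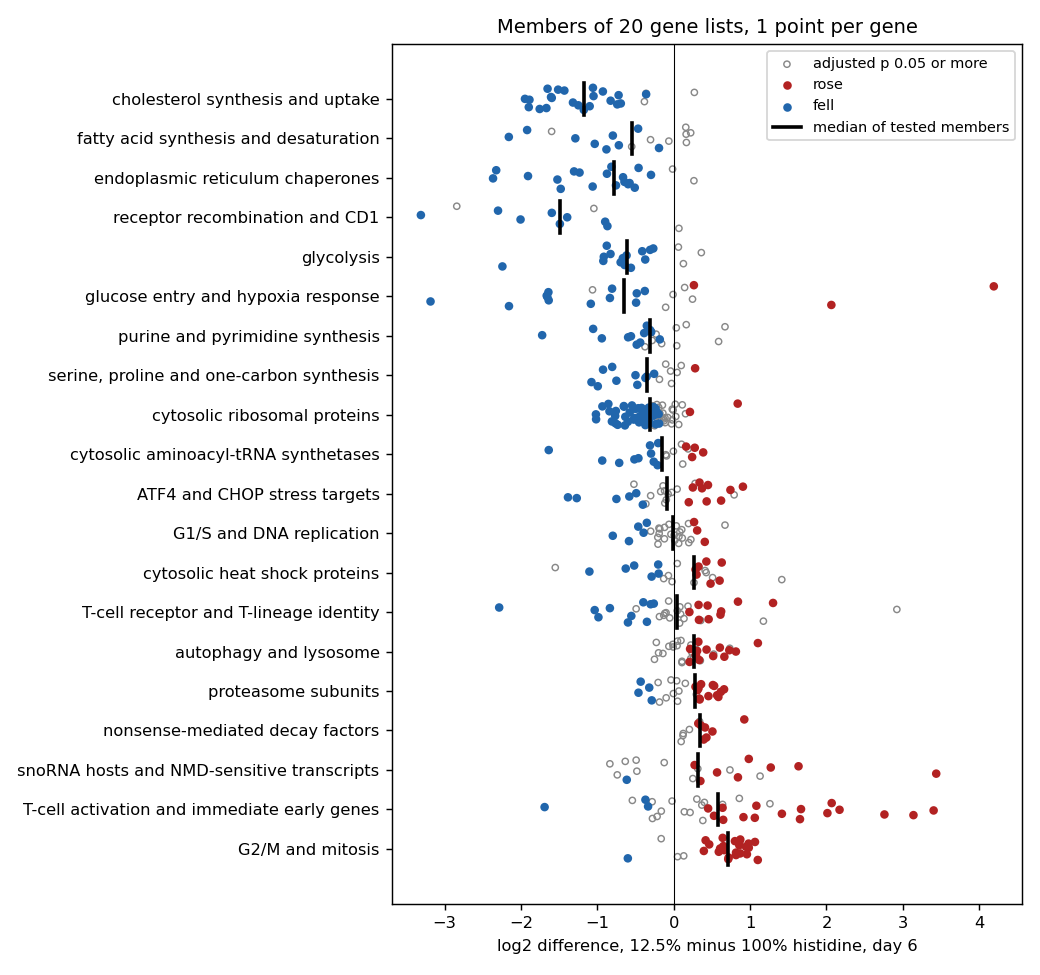
Log2 difference between 12.5% and 100% histidine on day 6 for the tested members of 20 gene lists, 1 point per gene, with the list median as a black bar. Filled points passed (red rose, blue fell) and open points did not; cholesterol genes lie left of 0 with a median of -1.18 and G2/M genes right of it with 0.72.

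Transfer RNA charging enzymes were divided, 4 of 20 higher and 10 lower (median -0.15). QARS1, glutaminyl-tRNA synthetase, stood out at 1589 and 1553 at 12.5% and 4824, 5003 and 4834 at 100% (-1.64 ± 0.08, adjusted p = 3.32e-14). The phenylalanyl enzyme subunit FARSA (-0.94) also fell, while the methionyl and seryl enzymes MARS1 (0.39) and SARS1 (0.28) rose. Without replicate 1 at 12.5%, 6 members fell, and without replicate 2 at 12.5% or replicate 1 at 100%, 2 rose. With the block as a term 5 fell.

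Ribosomal protein mRNAs were lower as a group: 47 of 73 tested fell, 2 rose and the median was -0.31. RPL3, which lies near the peptidyl transferase centre, read 25799 and 26556 at 12.5% and 53151, 53669.5 and 52052 at 100% (-1.02 ± 0.06, adjusted p = 2.25e-12). RPL7A (11524 and 11169 at 12.5% and 23093, 23787 and 22118 at 100%, -1.02) and RPS29 (2734 and 2913 at 12.5% and 5284, 5528 and 5369 at 100%, -0.93) fell by about as much, each without overlap. The rises were RPSA (0.84) and RPS12 (0.21), and 1 rise was left without any 1 of replicates 1 and 2 at 12.5% and replicates 1 and 3 at 100%. Ribosomal protein genes have many near-identical processed copies, and how reads were divided among them is not given in the sources used here. Once the block term was fitted 18 of the 73 fell and 0 rose.

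Ribosome biogenesis genes fell in 11 of 25 cases and rose in 5 (median -0.19). FBL, the methyltransferase fibrillarin, read 3248 and 3157 at 12.5% and 5833, 6368 and 6109 at 100% (-0.93), and BOP1 of the large-subunit processing complex fell by a little less (-0.69). NOP56, a partner of fibrillarin whose gene also hosts small nucleolar RNAs, rose (4022 and 3904 at 12.5% and 2805, 2968 and 2921 at 100%, 0.45). Without replicate 2 at 12.5% 7 members fell, and 2 or 3 rose without any 1 of replicates 1 and 2 at 12.5% and replicates 2 and 3 at 100%. Given the block term 2 fell and 4 rose.

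Host genes of small nucleolar RNAs, whose spliced transcripts are often degraded by nonsense-mediated decay during translation, were higher in 8 of 19 cases and lower in 1 (median 0.32). SNHG12 was the second largest rise by the same rule as TXNIP: its normalized counts were 811 and 822 at 12.5% and 81.6, 80.6 and 62.9 at 100%, about 10.8 times higher (3.44 ± 0.17, adjusted p = 7.19e-14). SNHG5 (958 and 1185 at 12.5% and 329, 323 and 377 at 100%, 1.63), SNHG32 (10549.7 and 10655 at 12.5% and 4375, 4299.5 and 4511 at 100%, 1.27), ZFAS1 (0.98) and GAS5 (0.84) rose too. GENCODE 29 annotates SNHG12 and ZFAS1 as antisense genes, and whether reads were counted by strand is not given in the sources used here. SNHG1 (-0.74), SNHG7 (-0.84) and SNHG16 (-0.48) had negative values that did not pass. EIF4A2, a helicase gene that hosts small nucleolar RNAs, was the single fall (-0.62), and that count was 0 without replicate 2 at 12.5% and with the block term.

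Factors of nonsense-mediated decay rose in 7 of 12 cases and fell in none (median 0.35). UPF3B read 1747 and 1908 at 12.5% and 918, 1017 and 953 at 100% (0.92), and the kinase SMG1 (0.43) and its substrate UPF1 (0.36) rose by less. With libraries 23 to 25 as a term 8 host genes and 6 decay factors rose.

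Chaperones of the endoplasmic reticulum were lower at 12.5% histidine in 18 of 20 tested cases, with none higher and a median of -0.79. These genes serve folding in the secretory pathway and are induced by the unfolded protein response. HSPA5, the Hsp70 chaperone BiP (chromosome 9, 125234853 to 125241330, minus strand, GRCh38), stood at 6631 and 6757 at 12.5% and 43910.0, 28961 and 32307 at 100% (-2.37 ± 0.12, adjusted p = 1.93e-11). Its 12.5% libraries were about 5.16 times lower and close together, and the 100% libraries were more widely spread, without overlap. SDF2L1, a cofactor in BiP cycling, fell by a similar amount (-2.32) from 2247, 1599 and 1815 at 100%, and MANF, a secreted survival factor, read 1319 and 1299 at 12.5% and 5871, 4169 and 4852 at 100% (-1.91). In all 3 genes replicate 1 was the highest 100% library and replicate 2 the lowest. Calreticulin CALR, a lectin chaperone, read 22757 and 21376 at 12.5% and 72294, 54693 and 58847 at 100% (-1.48), with the same order of libraries. HSP90B1 (-1.52), the disulfide isomerases PDIA6 (-1.31) and PDIA4 (-1.23), and the transcription factor gene XBP1 (-0.82) fell as well. SEL1L (-0.02) and the stress sensor ERN1 (0.26) did not pass. In the fit with the block term 11 members fell, HSPA5 with a difference of -2.22 (adjusted p = 1.13e-06).

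Promoters of this list are printed because they share the composite element bound by ATF6 with the CCAAT factor NF-Y, which was searched on both strands as CCAAT, 9 bases of any kind and CCACG. Capitals mark each match, and a match on the lower strand reads as its reverse complement.
HSPA5 (chr9:125241366-125241434, minus strand): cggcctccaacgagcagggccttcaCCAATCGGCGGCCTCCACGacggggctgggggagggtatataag
HSP90B1 (chr12:103930191-103930364, plus strand): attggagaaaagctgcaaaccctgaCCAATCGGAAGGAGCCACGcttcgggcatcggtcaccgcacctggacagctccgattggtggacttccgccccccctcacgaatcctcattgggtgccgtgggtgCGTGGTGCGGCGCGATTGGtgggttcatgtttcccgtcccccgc
CALR (chr19:12938359-12938427, plus strand): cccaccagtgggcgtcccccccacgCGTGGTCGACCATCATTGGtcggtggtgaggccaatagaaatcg
CRELD2 (chr22:49918529-49918597, plus strand): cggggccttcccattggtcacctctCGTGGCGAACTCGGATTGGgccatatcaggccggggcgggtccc
XBP1 (chr22:28800578-28800646, minus strand): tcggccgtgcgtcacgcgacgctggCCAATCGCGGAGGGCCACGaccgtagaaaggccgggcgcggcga
CANX (chr5:179698753-179698821, plus strand): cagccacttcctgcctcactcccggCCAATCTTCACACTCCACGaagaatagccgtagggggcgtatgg
The element was found in 6 of 19 promoters of the list and in 27 of 35116 promoters overall (0.0769%). The differences of these 6 genes lay between -0.51 (CANX, the lectin chaperone calnexin) and -2.37 (HSPA5), and CRELD2, a secreted disulfide isomerase-like protein, lay between them at -1.06. SDF2L1 and MANF, which fell further than 5 of these, were not among the 6. The motifs and the printed promoters were chosen after the values had been seen.

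Chaperones of the cytosol did not follow those of the endoplasmic reticulum: 7 of 23 tested heat shock genes rose, 6 fell and the median was 0.27. HSPH1, an Hsp110 nucleotide exchange factor, read 2196 and 2211 at 12.5% and 1623, 1384 and 1288 at 100% (0.63), and the cochaperones DNAJA1 (0.60) and STIP1 (0.43) and HSP90AA1 (0.30) rose. The constitutive HSPA8 rose slightly (10746 and 9398 at 12.5% and 8608, 8314 and 7210.4 at 100%, 0.33, adjusted p = 0.0156) and missed the threshold in 3 of 17 alternatives, among them those without replicate 1 at 12.5% or replicate 3 at 100%. The stress-inducible HSPA1B fell (285 and 340.3 at 12.5% and 1124, 549 and 489 at 100%, -1.10, adjusted p = 0.0311) but missed it in 7, among them those without either 12.5% library or replicate 1 at 100%. Its near-identical copy HSPA1A, with which it shares reads, read 114 and 164 at 12.5% and 140.2, 71.1 and 105 at 100% and did not pass (0.42). Without replicate 2 at 12.5%, 1 heat shock gene fell, and with the block term 0 fell and 6 rose. Subunits of the CCT chaperonin, which folds actin and tubulin, fell in 5 of 8 cases and rose in 1 (median -0.23), with CCT4 at 3286 and 3209.7 at 12.5% and 4728, 5003 and 4517 at 100% (-0.55). The rise, CCT3 (0.20), was lost without any 1 of 4 of the 5 libraries, and with the block term 0 rose and 2 subunits fell. Tubulins rose in 6 of 11 cases and fell in 1 (median 0.41), TUBA1A from 2100.1, 2240.4 and 2167 to 3435 and 3178 (0.61). Without replicate 1 at 12.5%, 3 tubulins rose, and without replicate 2, or with the block term, none fell. Tubulin genes also have near-identical copies.

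In cholesterol synthesis and uptake 22 of 25 tested members fell and none rose, with a median of -1.18. Most of these genes are targets of SREBP2, the transcription factor that is activated when membrane cholesterol is low. DHCR7 (chromosome 11, 71428193 to 71452868, minus strand, GRCh38), the last enzyme of the pathway, read 1268 and 1228 at 12.5% and 4551, 4681 and 4728 at 100% (-1.90 ± 0.08, adjusted p = 7.48e-16). Its 12.5% libraries were about 3.73 times lower, without overlap. Further along the day 6 series DHCR7 read 3950.5, 4114 and 4237 at 50% and 1809, 1744 and 1711 at 25%, so the 12.5% libraries were below every other day 6 library. INSIG1, the feedback inhibitor of SREBP processing, fell from 5403, 6355 and 5298 to 1598 and 1463 (-1.89). HMGCS1 (1052 and 1131 at 12.5% and 2551, 3181 and 2492 at 100%, -1.32), an enzyme before mevalonate, fell too. The mRNA of SREBP2 itself, SREBF2, read 2463 and 2361 at 12.5% and 6714, 7180.1 and 6781 at 100% (-1.51). HSD17B7 (-0.38) and PMVK (0.27) did not pass.

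The SREBF2 promoter is shown because, of 18 promoters found for this list, it alone held the sterol regulatory element searched as TCACNCCAC on both strands (capitals; 396 of 35116 promoters hold it, 1.13%).
SREBF2 (chr22:41832947-41833005, plus strand): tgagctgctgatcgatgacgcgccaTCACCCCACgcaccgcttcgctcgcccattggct
The shorter sequence CCAAT occurred in 15 of the 18, against 34.6% of all promoters.

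Fatty acid synthesis and desaturation fell in 9 of 17 cases and rose in none (median -0.55). The desaturases led: SCD, which makes monounsaturated fatty acids, read 9861 and 10301 at 12.5% and 36933, 41656 and 36033 at 100% (-1.92 ± 0.09, adjusted p = 2.75e-13), and FADS2, which desaturates polyunsaturated ones, read 2602 and 2369 at 12.5% and 10305, 12255 and 10810.2 at 100% (-2.16). FADS1 (-1.29), acetyl-CoA carboxylase ACACA (-0.88) and fatty acid synthase FASN (-0.80) fell by less, and ACLY, which makes cytosolic acetyl-CoA, by little (-0.19). Of 9 targets and receptors of the sterol-sensing LXR factors 3 rose and 2 fell. MYLIP, a ubiquitin ligase, read 663 and 593 at 12.5% and 268, 234 and 262 at 100% (1.30), and the cholesterol exporter ABCA1 read 774 and 776 at 12.5% and 512, 395 and 399.7 at 100% (0.84). Both falls of that list, ABCG1 (-0.25) and ABCG4 (-0.94), were lost without replicate 1 or 2 at 12.5% or replicate 3 at 100%, and 1 was lost without replicate 2 at 100%. With the block as a term 20 cholesterol genes and 7 fatty acid genes fell, no gene of the LXR list fell, and ABCA1 had 0.77 (adjusted p = 0.0842).

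Nucleotide synthesis genes fell in 13 of 22 cases and rose in none (median -0.31). IMPDH2, which commits IMP to GMP, read 1664 and 1736 at 12.5% and 5591, 5796 and 5457 at 100% (-1.72 ± 0.06, adjusted p = 1.08e-16), about 3.30 times lower. PRPS2, which makes the ribose donor (-1.06), and GMPS, the next step towards GMP (-0.94), fell as well, while CAD of pyrimidine synthesis did not pass (-0.16). Once the block term was fitted 5 fell. MYC, the transcription factor that drives ribosome and nucleotide synthesis, fell from 6606, 7609 and 6993 to 2318 and 2061 (-1.69 ± 0.08, adjusted p = 2.65e-14). It stood at 3776, 3477 and 3614 at 25%. In all, 3 of 13 genes of the MYC network fell and none rose, MYCL (-1.38) and the antagonist MXI1 (-0.71) being the others. Without replicate 2 at 12.5% MXI1 did not pass.

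Mitotic genes were higher at 12.5% histidine: 24 of 28 tested rose, 1 fell and the median was 0.72. PLK1, a mitotic kinase, read 4315 and 4318 at 12.5% and 1949, 2237 and 2019 at 100% (1.06 ± 0.08, adjusted p = 1.81e-10), about 2.09 times higher without overlap. The proliferation marker MKI67 read 18223 and 19963 at 12.5% and 10100.4, 9644 and 9287 at 100% (0.98), TPX2, a spindle assembly factor, 9119.6 and 9777 at 12.5% and 5064, 5376 and 5048 at 100% (0.87), and NUSAP1, a spindle microtubule protein, 3605 and 3482 at 12.5% and 2031, 2107 and 1742 at 100% (0.86). Cyclin B1 CCNB1 (0.96), the spindle gene ASPM (1.10) and the transcription factor FOXM1 (0.98) rose by as much, and CDK1 (0.39) by less. AURKB fell (-0.60). Given the block term 23 of these genes rose and 0 fell. No measure of cell number or cell cycle phase is among the files, and a higher share of cells in mitosis and more of these mRNAs per cell cannot be told apart in bulk RNA.

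The element TTTGAA, at which the DREAM and MuvB complexes bind cell cycle promoters, was found on either strand in 14 of 22 promoters of this list and in 15.2% of all promoters. It is shown in 3 of them, in capitals, 29 to 17 bases before the start.
PLK1 (chr16:23678835-23678890, plus strand): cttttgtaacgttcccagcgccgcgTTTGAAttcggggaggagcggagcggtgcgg
CCNB2 (chr15:59105092-59105147, plus strand): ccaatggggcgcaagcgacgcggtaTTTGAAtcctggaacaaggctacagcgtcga
HMMR (chr5:163460579-163460640, plus strand): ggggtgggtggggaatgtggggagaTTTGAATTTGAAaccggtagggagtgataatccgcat
HMMR, a microtubule-binding hyaluronan receptor, rose by 0.95 and cyclin B2 CCNB2 by 0.87. The median difference was 0.74 for members with the element and 0.73 for those without.

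Genes of G1/S and DNA replication mostly did not pass: 3 of 30 rose, 5 fell and the median was -0.02. Over all tested genes 10.8% rose and 11.1% fell, so these counts lie near the general share. The helicase subunits MCM2 (3365 and 2978 at 12.5% and 5205, 5897 and 5433 at 100%, -0.80) and MCM6 (-0.39) and the loader CDT1 (-0.59) fell, while PCNA (0.31) and the loader CDC6 (0.41) rose. Without replicate 1 at 12.5% no member rose, and with the block term 1 rose and 2 fell. Cyclins and inhibitors of G1 went both ways, 6 of 16 higher and 5 lower (median 0.17). The inhibitor CDKN2D, which restrains CDK4 and CDK6, read 1452 and 1469 at 12.5% and 747, 729 and 789 at 100% (0.95 ± 0.08), and CDK6 itself read 15531 and 16089 at 12.5% and 9832, 10275 and 9286 at 100% (0.69). Cyclin D2 CCND2 fell (-0.65). CDKN1A, which encodes p21, read 292 and 322 at 12.5% and 221, 137 and 214 at 100% and did not pass (0.72, adjusted p = 0.0821), although it did in 3 of 17 alternatives. With the block term its value was negative (-0.53, adjusted p = 0.453). Without replicate 1 or without replicate 2 at 12.5% the falls of this list numbered 2, and with the block term 1. Histone genes rose in 7 of 16 cases and fell in none (median 0.58), among them H3-3B, which is also expressed outside S phase (16653 and 17302 at 12.5% and 8624, 8631 and 8704 at 100%, 0.97). Without replicate 1 at 12.5%, and with the block term, 4 histone genes rose.

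**Figure D3:**
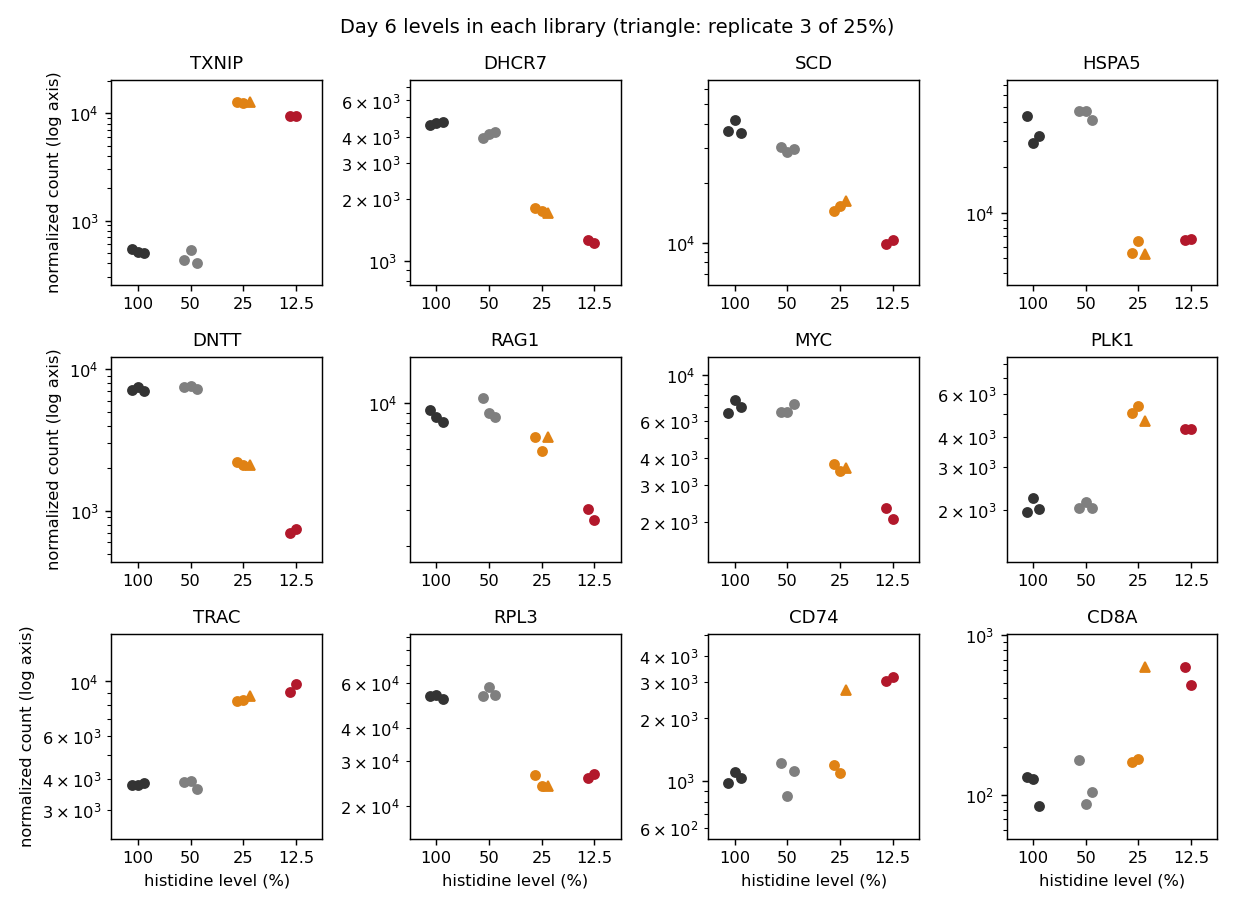
Normalized counts (log axis) of 12 genes in each day 6 library at 100%, 50%, 25% and 12.5% histidine, 1 point per library. Replicate 3 of 25% is a triangle: it lies with the other 25% libraries for TXNIP, DHCR7, HSPA5 and DNTT, and near the 12.5% libraries for CD74 (2736 against 3011 and 3173) and CD8A.

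T-cell identity genes were present at all levels and changed in both directions, 9 of 35 higher and 10 lower (median 0.05). Of the receptor chains, the alpha constant gene TRAC read 9047 and 9765 at 12.5% and 3803, 3792 and 3852 at 100% (1.30 ± 0.06, adjusted p = 1.26e-14), about 2.46 times higher, and the beta constant gene TRBC2 read 3218 and 2944 at 12.5% and 1634, 1723 and 1800.5 at 100% (0.84). TRBC1, a near-identical neighbour of TRBC2, fell (-0.40). CD3E rose modestly (0.46), while the coreceptors and regulators CD5 (-0.99), CD2 (-0.60) and CD7 (-0.56) fell. MYB, a transcription factor of early T cells, read 5592 and 5865 at 12.5% and 10335, 10632 and 9723 at 100% (-0.84), and PTCRA, the surrogate alpha chain of immature thymocytes, fell from low levels (-2.29).

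Genes of receptor recombination and immature thymocytes had the lowest median of the 48 lists, -1.49, with 8 of 11 lower and none higher. DNTT, the terminal transferase that adds bases at receptor gene joints (chromosome 10, 96304396 to 96338564, plus strand, GRCh38), read 701 and 749 at 12.5% and 7141, 7460.1 and 6995 at 100% (-3.31 ± 0.06, adjusted p = 2.74e-24). That is about 9.92 times lower, and at 25% it stood between, at 2217, 2093 and 2097. The recombinase genes RAG1 (3048 and 2678 at 12.5% and 9290.2, 8547 and 8126 at 100%, -1.60) and RAG2 (198 and 195 at 12.5% and 984, 1019 and 915 at 100%, -2.30) and the lipid-presenting CD1D (443 and 448 at 12.5% and 1736, 1885 and 1756 at 100%, -2.01) fell without overlap. CD1A, CD1B, CD1C and CD1E also fell, with differences between -0.87 (CD1A) and -1.49 (CD1B). With libraries 23 to 25 as a term 8 members fell, the same number. NOTCH pathway genes fell in 6 of 14 cases and rose in none (median -0.53): the receptors NOTCH3 (455 and 400.1 at 12.5% and 855, 829.5 and 859 at 100%, -0.99) and NOTCH1 (-0.56) and the target DTX1 (-0.97) were among them. In the fit with the block term 3 fell and 1 rose.

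Outside the lists, other genes fell deeply from high levels. ALDH1A2, which makes retinoic acid, read 2318 and 2349 at 12.5% and 15777, 17059.7 and 15609 at 100% (-2.79), CHI3L2, a chitinase-like protein, 1138 and 1134 at 12.5% and 8809, 10275 and 9254 at 100% (-3.05), and DAAM2, a formin of Wnt signalling, 1247 and 1175 at 12.5% and 5475, 5653 and 5265 at 100% (-2.17). SDK2, a cell adhesion molecule, showed the deepest fall among genes with a group mean of at least 100 (6.37 and 19.9 at 12.5% and 565, 622 and 436 at 100%, -5.43 ± 0.80). The chemokine receptor CCR8 (15.6 and 10.1 at 12.5% and 163, 182 and 175 at 100%) and the myeloid transcription factor gene CEBPE (28.7 and 43.8 at 12.5% and 341, 361 and 365 at 100%) fell as well (-3.68 and -3.29). The kainate receptor subunit GRIK4 (-3.06), the pseudokinase-related NRBP2 (-2.90), the complement gene C9 (-2.75) and the receptor gene GPR162 (-2.68) completed the 10 deepest. Among rises, CHGB, a granin of secretory granules, read 374 and 405 at 12.5% and 30.9, 31.0 and 80.1 at 100% (3.16), KIF26B, a kinesin-family protein, 194 and 242 at 12.5% and 68.2, 27.7 and 48.3 at 100% (2.24), and RASAL3, a Ras GTPase-activating protein of lymphocytes, 3291 and 3299 at 12.5% and 1081, 899 and 1034 at 100% (1.72).

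Activation and immediate early genes rose in 16 of 34 cases and fell in 3 (median 0.58), but several of them were divided by library number as well as by histidine. EGR2, a transcription factor induced by receptor signalling, read 207 and 164 at 12.5% and 29.4, 11.9 and 22.7 at 100% (3.14 ± 0.81, adjusted p = 0.00776). In the 25% libraries it read 23.9, 30.4 and 176, so that replicate 3, number 23, lay with the 12.5% libraries and replicates 1 and 2 close to the 100% libraries. EGR3 (140.5 and 153 at 12.5% and 7.34, 37.1 and 31.8 at 100%, against 53.9, 85.9 and 141 at 25%), FOSB (828 and 962 at 12.5% and 141, 258 and 294 at 100%, against 175, 95.0 and 716) and the interleukin-2 receptor chain IL2RA (82.1 and 59.8 at 12.5% and 4.25, 5.94 and 7.34 at 100%, against 28.7, 8.19 and 88.2) had replicate 3 of 25% nearest to 12.5% too, although replicates 1 and 2 of EGR3 lay above every 100% library. EGR1 (0.53, adjusted p = 0.0436) missed the threshold in 11 of 17 alternatives, and EGR2 did without replicate 1 at 12.5%. JUN (593 and 474 at 12.5% and 183, 188 and 133 at 100%, against 318, 439.7 and 511 at 25%) and the phosphatase gene DUSP10 (381 and 390.4 at 12.5% and 130.4, 104 and 133 at 100%, against 238, 266 and 304) were raised in all 3 of the 25% libraries. MYC, described above, was the largest fall of this list.

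Outside that list replicate 3 of 25% also lay with the 12.5% libraries for CD8A, a T-cell coreceptor chain (629.8 and 484 at 12.5% and 129, 125 and 84.8 at 100%, against 159, 168 and 633 at 25%), and the cytokine genes TNF (151 and 178 at 12.5% and 17.3, 57.0 and 36.5 at 100%, against 22.5, 13.7 and 144) and LTB (393 and 333 at 12.5% and 77.2, 90.2 and 71.6 at 100%, against 96.2, 104 and 354). CD74, the invariant chain of MHC class II, read 3011 and 3173 at 12.5% and 987, 1112 and 1033 at 100% and 1192, 1096 and 2736 at 25%, and the class II gene HLA-DRA read 745 and 852 at 12.5% and 320.1, 326 and 380.4 at 100% and 436, 379.9 and 720.0 at 25%. Among the 300 rises of at least 1 log2 unit, 53 had replicate 3 alone of the 25% libraries nearer to 12.5%, against 7 for replicate 1 alone and 8 for replicate 2 alone. Among the 755 falls of that size these numbers were 45, 38 and 46. Over called genes of any size they were 113, 75 and 88 among 2482 rises. Among all 2554 falls they were 194, 93 and 119, so replicate 3 alone was the most frequent there too. In the contrast of 12.5% with 100% alone, the histidine level and the block of libraries 23 to 25 cannot be told apart.

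With the block as a term, 2 of the 34 activation genes rose and 1 fell, beside 1243 and 864 of all 22994 tested genes. The difference of EGR2 was 0.48 (adjusted p = 0.88), that of CD8A 0.36 (adjusted p = 0.836), that of LTB 0.36 (adjusted p = 0.713) and that of CD74 0.31 (adjusted p = 0.583). The call of TNF was also lost in 8 of 17 other alternatives. With the term TNF (-0.70), EGR1 (-0.32) and FOSB (-0.45) had negative values and did not pass (adjusted p = 0.783, 0.375 and 0.816). EGR3 (1.71 ± 0.81), IL2RA (0.97 ± 1.81) and JUN (1.22 ± 0.64) kept positive values with wide standard errors and did not pass (adjusted p = 0.231, 0.843 and 0.315). By contrast TXNIP (4.18), DNTT (-3.27), PLK1 (1.22) and TRAC (1.24) passed with the term. Without the term but also without replicate 1 at 12.5% 6 activation genes rose, and without replicate 2 at 12.5% 8 rose. The falls among them numbered 1 without replicate 1 at 12.5%.

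Other genes described here as risen or fallen did not pass with the block term, although each kept its sign. Among rises these were PCNA and CDC6 of replication, HSPA8 and CCT3 of the chaperones, BAX, BCL2L12 and MCL1 of the BCL2 family, the ribosomal protein genes RPSA and RPS12, SMG1, IREB2, IFIT2, HLA-DRA, CD79A and ITGAM. Among falls they were CDT1, CCND2 and AURKB of the cell cycle, ABCG1, ABCG4 and ACLY of lipid metabolism, CANX and HSPA1B of the chaperones, and BBC3 and HRK of the BCL2 family. The falls of PHGDH, SLC2A1, SLC7A7, MXI1, EIF4A2, DTX1, GRIK4, BLNK and VIM did not pass with the term either.

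Interferon-stimulated genes mostly did not pass, with 5 of 35 higher, none lower and a median of 0.19, beside 10.8% higher and 11.1% lower over all tested genes. IFIT2, an RNA-binding antiviral protein, read 216 and 195 at 12.5% and 93.0, 104 and 99.6 at 100% (1.05), but at 25% replicate 3 was again the highest of the 3 (129, 159.8 and 176). Without any 1 of replicates 1 and 2 at 12.5% and replicate 2 at 100%, 3 members rose. With the block as a term 1 rose and 1 fell. Of 10 MHC class I genes 2 rose and none fell, and B2M, the light chain of these molecules, read 11155 and 11289 at 12.5% and 8166, 8213 and 7709 at 100% (0.48). In the 25% libraries B2M read 11287, 10393 and 11312.

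Redox and iron genes changed selectively. Of 20 NRF2 and redox genes 6 rose and 4 fell. NQO1, a quinone reductase, read 800.1 and 749 at 12.5% and 412, 333 and 404 at 100% (1.02), and TXNRD1, which reduces the thioredoxin that TXNIP binds, read 12495 and 12737 at 12.5% and 6769.8, 6786 and 6983 at 100% (0.88 ± 0.06, adjusted p = 4.88e-11). Transketolase TKT of the pentose phosphate pathway fell (5129 and 5288 at 12.5% and 9631, 10414 and 10012 at 100%, -0.94), and leaving out any 1 of replicates 1 and 2 at 12.5% and replicates 1 and 2 at 100% left 2 falls in this list. Of 11 iron genes 2 rose and 3 fell, beside 10.8% and 11.1% over all tested genes. FTH1, the ferritin heavy chain, read 34527 and 33077 at 12.5% and 18046, 19388 and 17249.8 at 100% (0.89), above the 25% libraries (23363, 23527 and 21503), while FTL, the light chain, did not pass (-0.07). The second rise, IREB2 (0.25), was lost without replicate 1 or 2 at 12.5% or replicate 3 at 100%. With the block term 1 rose and 1 fell among iron genes, and 5 rose and 2 fell among NRF2 and redox genes.

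Autophagy and lysosome genes rose in 14 of 35 cases and fell in none (median 0.26). TFE3, a transcription factor of lysosome genes, read 1403 and 1621 at 12.5% and 797, 738 and 589 at 100% (1.10). GABARAPL1 (1369 and 1357 at 12.5% and 818, 784 and 726 at 100%, 0.81) and MAP1LC3B (0.60), which coat autophagosomes, and BECN1 of the initiating lipid kinase complex (0.66) rose as well, and 10 of the list rose with the block term. Proteasome subunits rose in 13 of 27 cases and fell in 4 (median 0.28), PSMB6 from 1492, 1683 and 1503 to 2347 and 2429 (0.62), and with the block term 11 rose and 0 fell. FOXO targets rose in 4 of 20 cases and fell in 3, beside 10.8% and 11.1% over all tested genes. KLF6 of this list read 1396 and 1501 at 12.5% and 785, 909.8 and 870.4 at 100% (0.76). Without replicate 2 at 100%, 1 of the list fell.

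Death and damage genes mostly did not pass. Jurkat cells are known to lack functional p53. Of 22 genes listed as DNA damage or p53 targets 4 rose and 3 fell, beside 21.9% called over all genes, with TP53INP1 at 474 and 564 at 12.5% and 312, 282 and 266 at 100% (0.85) and ZMAT3 at 1580.4 and 1956 at 12.5% and 1093, 1132 and 1142 at 100% (0.65), and 1 or 0 fell without replicate 1 or replicate 2 at 12.5%. With the block term 2 rose and 1 fell, and ZMAT3 did not pass (0.62, adjusted p = 0.0625). In the BCL2 family 3 of 17 rose and 3 fell, beside 10.8% and 11.1% over all tested genes. BAX (0.44), BCL2L12 (0.40) and MCL1 (0.30) rose, and BID (-0.61), BBC3 (-0.55) and HRK (-0.53) fell. Leaving out replicate 1 at 12.5%, 1 fell and BCL2L12 did not pass, 5 rose without the library with heart transcripts, and with the block term 0 rose and 1 fell. Polyamine genes rose in 4 of 10 cases and fell in 3. ODC1, the rate-limiting enzyme, rose (0.37) together with its antizymes OAZ1 (0.42) and OAZ2 (0.35), while spermine synthase SMS fell (-0.44). Between 1 and 2 of this list rose without any 1 of replicates 1 and 2 at 12.5% and replicate 3 at 100%. With the block term 3 rose and 0 fell, and SMS did not pass (-0.29, adjusted p = 0.266).

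Markers of other cells were low or did not separate the groups, with a few exceptions. The summed B-cell markers were 4275.0 to 4624 at 12.5% and 1777 to 1912 at 100%, and CD74 and HLA-DRA, which activated T cells also express, account for most of this. PAX5, a transcription factor that defines B cells, read 3.24 and 11.1 at 12.5% and 11.1, 10.6 and 12.2 at 100% and did not pass (-0.77). In that list 3 of 8 tested members rose, with CD79A (0.41) the third, and BLNK fell (-1.43). The fall of BLNK was lost without replicate 1 at 12.5% or replicate 3 at 100%, and no member rose or fell with the block term. Myeloid markers summed to 343 to 427 and 243 to 376, with ITGAM the single rise (36.7 and 36.4 at 12.5% and 5.97, 12.4 and 3.01 at 100%), high also in replicate 3 of 25% (11.6, 6.11 and 40.8), a call lost without replicate 1 or 2 at 12.5% or replicate 3 at 100%, and with the block term. Fibroblast and matrix markers summed to 14400.0 to 18850.0 at 12.5% and 16600.0 to 22680.0 at 100%, with 2 of 12 lower (THY1 -1.01 and VIM -0.53), and 1 with the block term. None of 7 tested epithelial, 5 erythroid, 8 heart or 6 hepatocyte markers passed, but 2 heart markers fell without the 25% library that holds heart transcripts. The part of these transcripts in the differences above was not tested.

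Against 25% histidine on the same day few genes differed: 201 passed (0.874% of those tested), 47 higher (0.204%) and 154 lower (0.67%) at 12.5%. This comparison shares the 12.5% libraries with the one above, so both values are given side by side only. Lower at 12.5% than at 25% were DNTT (-1.56, adjusted p = 3.67e-16), RAG1 (-1.19) and NOTCH3 (-0.93). ARRDC3 was higher by 1.63 (adjusted p = 1.43e-10), and TOX2, a T-cell transcription factor gene, by 1.09 (1106 and 965 at 12.5% and 389.6, 338 and 388 at 100%, 464, 489 and 502 at 25%). TXNIP was lower at 12.5% than at 25% (-0.43, adjusted p = 0.021). In the receptor recombination list 5 of 11 genes were lower at 12.5%, in the cholesterol list 4 of 25 and in the fatty acid list 4 of 17. No endoplasmic reticulum chaperone, mitotic or glycolytic gene passed in either direction, where the share over all genes was 0.874%. The count was 322 without replicate 3 of 25%, 113 without its replicate 2, and 82 or 74 without replicate 1 or 2 at 12.5%. Once the block term was fitted it was 40. Against 100%, 4645 genes changed at 25% (20.2%), 2521 higher (11%) and 2124 lower (9.24%), and 1 gene changed at 50% (0.00435%).

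**Figure D4:**
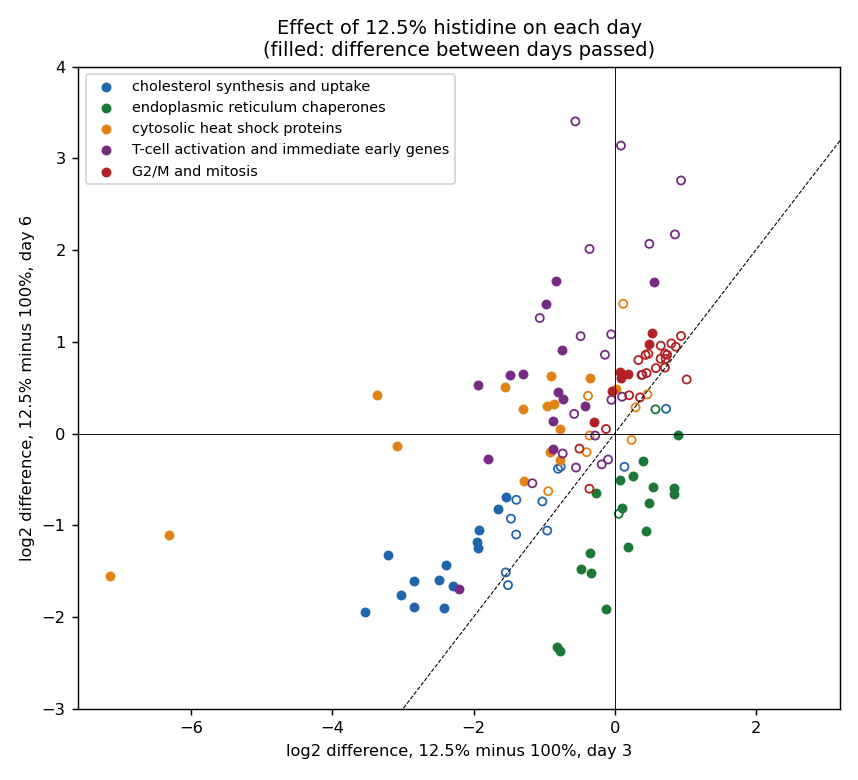
Effect of 12.5% histidine against 100% on day 3 (horizontal axis, log2) and day 6 (vertical axis, log2) for tested members of 5 gene lists, 1 point per gene. The dashed line marks equal effects, and filled points passed the test of the difference between days; the filled cholesterol genes lie above the line and the filled endoplasmic reticulum chaperones below it.

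The effect of 12.5% histidine on day 6 was set against the same contrast on day 3, where 6018 genes changed (26.2%), 3257 higher (14.2%) and 2761 lower (12%). The difference between the effects passed for 836 genes (3.64%), being more positive on day 6 for 294 (1.28%) and more negative for 542 (2.36%). Without a single library the count ranged from 379 (without replicate 2 of 12.5% on day 6) to 929, and it was 442 without replicate 1 of 12.5% on day 6 and 392 without replicate 1 of 100% on day 3. The rises numbered 185 without replicate 3 of 100% on day 3. It passed for 18 of 20 endoplasmic reticulum chaperones, all more negative on day 6, and for 15 of 23 heat shock genes, 14 of 25 cholesterol genes and 14 of 34 activation genes, all more positive on day 6. The median effect on day 3 was 0.15 for the first of these lists, -0.86 for heat shock genes, -1.65 for cholesterol genes and -0.55 for activation genes. On day 6 several activation genes were divided by library number as well as by histidine, as described above. The difference between days of this list carries that limit. Of the ATF4 and CHOP targets 11 of 28 had a more negative effect on day 6, and none a more positive one. Given the block term 141 genes passed.

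Several of these genes read higher or lower at 100% on day 6 than on day 3, and levels at 100% were not tested between the days. HSPA5 read 12178 and 11807 at 100% on day 3 and 43910.0, 28961 and 32307 on day 6, but 7751, 6845 and 6572 and 6631 and 6757 at 12.5%. MANF likewise read 1759.8 and 1882 and 5871, 4169 and 4852 at 100%, against 1701, 1683 and 1620.3 and 1319 and 1299 at 12.5%. The 12.5% libraries of both days were thus close together for HSPA5, while every 100% library of day 6 lay above those of day 3.

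TRIB3 at 100% read 4607 and 4158 on day 3 and 14919, 10760.2 and 12603 on day 6, and at 12.5% 27564, 25784 and 26474 and 17457 and 17064, so its rise was 2.60 on day 3 and 0.45 on day 6. DDIT3 read 322 and 331 and 1299, 969 and 1216 at 100%, and 578, 511 and 525 and 481 and 474 at 12.5%, a difference of 0.72 on day 3 and -1.27 on day 6. For DDIT3 the 100% libraries therefore crossed from below the 12.5% libraries to above them.

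In HMGCS1, INSIG1 and HSPA1B the 100% libraries of day 6 lay below those of day 3. HMGCS1 read 10529 and 11360.3 and then 2551, 3181 and 2492 at 100%, against 1167, 1189 and 1195 and 1052 and 1131 at 12.5%. INSIG1 went from 11449.6 and 13225 to 5403, 6355 and 5298 at 100%, against 1662, 1704 and 1774 and 1598 and 1463 at 12.5%. HSPA1B read 21225 and 18664 on day 3 and 1124, 549 and 489 on day 6 at 100%, against 304, 217 and 234 and 285 and 340.3 at 12.5%. Days were sampled once each, and the day cannot be told apart from library numbers, since day 3 libraries are those before 15.

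**Figure D5:**
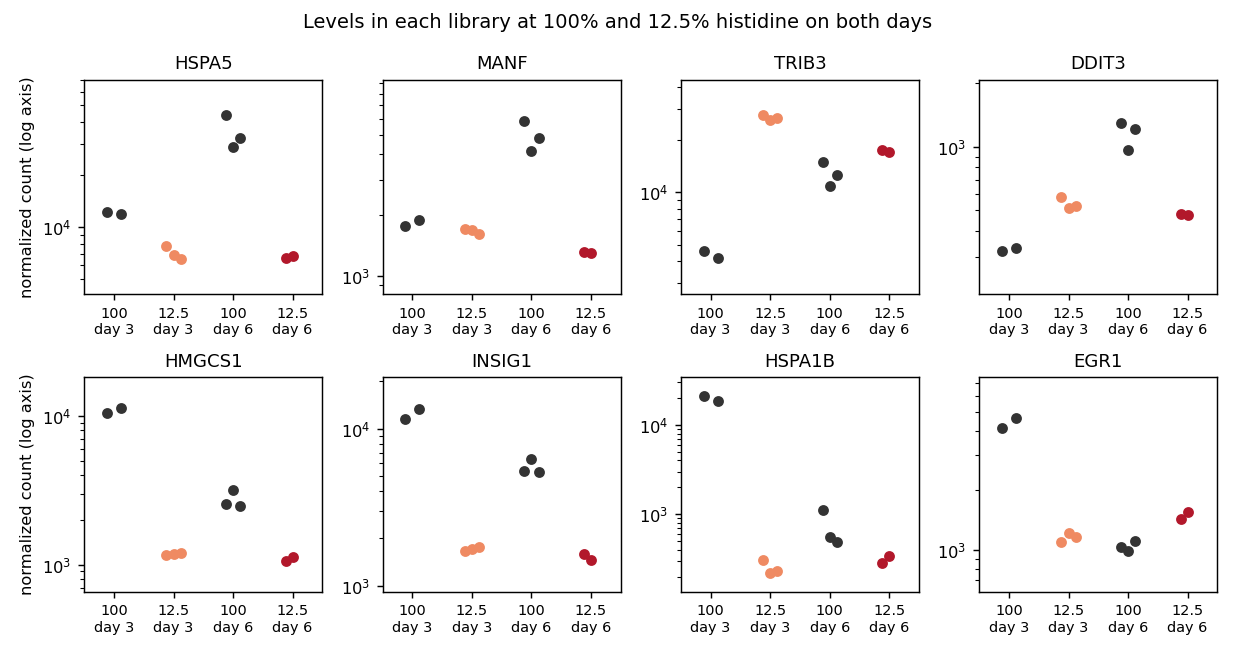
Normalized counts (log axis) of 8 genes at 100% (black) and 12.5% (orange, day 3; red, day 6) histidine on days 3 and 6, 1 point per library. Between the days the 100% libraries move further than the 12.5% libraries for HSPA5, MANF, HMGCS1, INSIG1 and HSPA1B.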

How the data were processed

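The 25 Jurkat RNA libraries form 9 groups by day and histidine level. Per the labels' protocols, cells were lysed over QIAshredder, RNA was bound to RNeasy Mini columns, and a company made stranded Illumina libraries. FastQC 0.11.9, kallisto 0.50.1, DESeq2 1.44.0 and GRCh38 are named in the submitters' processing notes, without their roles. Neither the annotation nor the strand setting is given. The authors deposited 1 normalized signal per gene and library (36755 genes), in which whole reads could not be recovered, so depth is unknown, no count model was run and no counting interval is given.

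The 22994 genes that reached 10 in 2 or more libraries entered the test. Values were taken as log2(value + 1), which understates changes of low genes, and fitted with limma 3.58.1 (R 4.3.3, statmod 1.5.0) as 9 group means with an intensity trend and robust moderation, all groups sharing the spread (median 25.22 degrees of freedom). P-values were adjusted over all tested genes by the Benjamini-Hochberg method and called under 0.05. The procedure was tested on simulated data.

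The comparison, the 48 gene lists and the tests were chosen with earlier results of these data known. Named genes were the 10 largest rises and falls without overlap and with a group mean of at least 100, the 6 largest with a mean of at least 2000, the 3 smallest p of each list, 17 fixed genes, and the 5 largest each way against 25% and between days, 166 in all. Other list members and CD8A-like patterns were picked after their values had been seen. A few genes are not reported here. Gene positions come from GENCODE 29, promoters from RefSeq (GRCh38.p14). Alternatives were another pseudocount (0.5, 10), filter (none, 50), scaling (total sum, quantile), set of libraries (5 or 11), a replicate block, library number modulo 8, plain moderation, each library left out, and, added after seeing the data, libraries 23 to 25 as a term.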

Additional observations from a re-analysis of the deposited data

Results flagged for a closer look

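Results are listed here because the test of the difference between days passed for the effect of 12.5% against 100% histidine. It passed for 836 genes in all. Values are the day 6 effect minus the day 3 effect on the log2 scale, and adjusted p-values are from limma.

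Of the stress and growth genes, DDIT3 had a difference of -1.99 (adjusted p = 5.12e-08), TRIB3 of -2.15 (adjusted p = 6.96e-11), SESN2 of -0.35 (adjusted p = 0.0427) and MYC of 0.52 (adjusted p = 0.00882). The sterol gene HMGCS1 had 1.89 (adjusted p = 2.61e-11), and MKI67 had 0.50 (adjusted p = 0.0243). Among heat shock genes the difference was 5.60 for HSPA6, 5.21 for HSPA1B, 3.79 for HSPA1A, which shares reads with HSPA1B, and 1.18 for HSPA8 (adjusted p = 0.00165, 6.16e-06, 3.68e-04 and 7.81e-06). HSPA6, an inducible Hsp70, read 43.8 and 50.9 at 12.5% and 309, 103 and 87.1 at 100% on day 6, with 32.6, 25.5 and 60.7 at 12.5% and 5505 and 5342 at 100% on day 3.

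Of genes that did not pass on day 6 itself, the neuronal immediate early gene ARC had 3.60 (adjusted p = 0.00473) and the immediate early gene relative IER5L 3.47 (adjusted p = 5.20e-04). The viral RNA sensor RIGI had -5.01 (adjusted p = 0.0294), KLHDC7B -3.27 (adjusted p = 3.53e-07) and the cytokine receptor IL31RA -2.06 (adjusted p = 0.0424). RIGI read 130.5, 93.5 and 96.9 at 12.5% and 20.1 and 0.00 at 100% on day 3, and 78.6 and 161 at 12.5% and 134, 160.1 and 179 at 100% on day 6. The groups of RIGI overlapped on day 6.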

How the results depend on the processing

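Of 155 named genes called in the main comparison, 140 kept their call under each of 17 alternatives that gave a value for them. With libraries 23 to 25 as a term, added after seeing the data, TNF (-0.70), EGR1 (-0.32) and FOSB (-0.45) changed sign. That term gave 2107 changed genes, 1243 higher and 864 lower, against 100%; 40, 15 and 25 against 25%; and 141, 78 and 63 for the difference between days.

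Leaving out 1 library gave 3175 to 5262 changed genes against 100% (1452 to 2588 higher, 1723 to 2674 lower). Against 25% it gave 74 to 322 (6 to 102 higher, 68 to 220 lower), and for the difference between days 379 to 929 (131 to 337 higher, 247 to 592 lower). Fits with 1 library left in a group assume that it varies like the others.

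The replicate block in the day 6 libraries gave 4453 changed genes against 100% (2087 higher, 2366 lower) and 82 against 25% (14 and 68). Deviations from the group means of same-numbered libraries at 12.5% and 100% had correlations of -0.006071 and -0.009235. With 2 libraries at 12.5% these deviations are mirror images of each other. The check therefore cannot tell whether libraries with the same number were handled together. A number 3 at 12.5% was not analysed here. Of the other same-numbered pairs of day 6 libraries, replicate 3 at 100% and 50% had a correlation of 0.192 and the rest were between -0.0525 and 0.0635. Against 25%, the 11 day 6 libraries alone gave 91 (14 and 77), library number modulo 8 gave 32 (7 and 25) and plain moderation 113 (15 and 98). For the difference between days, library number gave 549 with 322 lower, and plain moderation 510 (172 and 338). The causes were not tested. Depth is unknown, which limits what can be said of genes near 0.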
